A study of Mus musculus with 6 samples.

Results

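The cytosolic ribosomal protein genes encode the proteins of the 80S ribosome, which translates messenger RNA outside mitochondria. Members were the genes whose array annotation gave a single symbol beginning with Rpl or Rps and a digit, or with Rplp, or the symbol Rpsa. Kinase genes named Rps6k and symbols containing -ps were left out. The rule found 63 of the 19938 genes tested, measured by 219 probe sets, and the brightest probe set over the 6 arrays stood for each gene. By symbol 54 of them are core ribosomal protein genes, 21 of the small (40S) and 33 of the large (60S) subunit. The other 9 are paralogs or genes that only share the name: Rpl3l, Rpl7l1, Rpl10l, Rpl32l, Rpl39l, Rps4l, Rps27l, Rps23rg1 and Rps19bp1, the last of which encodes a protein that binds Rps19 and regulates the deacetylase SIRT1. A further 20 ribosomal protein symbols, Rpl11 and Rpl13a among them, were seen only on probe sets that list several symbols, so those genes are not members.

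The cells were naive CD4 T cells of peripheral lymph nodes from C57BL/6 Foxp3-GFP mice aged 6 weeks, whose reporter marks Foxp3 expression by fluorescence. They were sorted for CD4 and the T cell receptor beta chain, low in CD44 and without CD8, CD25 or Foxp3. Cells with Ly-6C, a small lipid-anchored surface protein, formed one group and cells without it the other, with 3 arrays each. No treatment was given to either group, and both carry the same reporter. Which animals gave each sample, and whether animals were pooled, is not given for these labelled biological replicates, so a p-value measures the spread between these samples, which may be technical. Of 12 listed markers of CD4 T cells, 8 were measured, all at or above the 95.1th percentile of gene levels. Their summed level was 14.35 to 14.43 in Ly-6C-positive and 14.34 to 14.44 in Ly-6C-negative cells. Singly, 4 of the 8 were lower and 4 higher in Ly-6C-negative cells. The smallest p was that of Cd5, higher there by 0.41 on the log2 scale (limma adjusted p = 0.139). None of the 5 measured markers of B cells, the 5 of NK cells or the 3 of erythroid cells and platelets exceeded the median gene, against 1 of 8 myeloid, 1 of 2 CD8 T cell and 3 of 6 stromal and endothelial markers. Summed over each of these lists, the levels of the groups overlapped.

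Each ribosome needs a fixed set of these proteins, and their genes are known to be expressed together in every growing cell. Their messenger RNAs belong to the TOP class, which begins with a cytosine and a run of pyrimidines (C or T in the DNA). Through this run the kinase mTORC1, by way of the protein LARP1, is known to set how well they are translated, so ribosome production can change without a change in messenger level. Naive T cells are small resting cells, and activation is known to enlarge their ribosome pool.

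The start-site sequences of 8 members are given first, because the TOP run is what defines the class. Those shown with a run are 7 of the 10 members that had one in the search described next. They are RefSeq sequences of build GRCm38.p6, 15 bases before the annotated start and 15 from it, 5′ to 3′ on the strand of the gene. Capitals mark the pyrimidines that follow without a break from the annotated start, where the start base is C and at least 4 are pyrimidines. In the stretches with capitals the base before the start is also a pyrimidine, so the capitals show only the part of the run from the annotated start on. The small-subunit genes are Rps6, which encodes the target of the S6 kinases, Rps10, Rps15a and Rps18. The large-subunit genes are Rplp2, of the stalk that recruits elongation factors, Rpl28 and Rpl38. Rpl10l, a paralog of Rpl10 known from testis, is shown as a member without the run. The run does not divide core genes from the rest, since 9 of the 43 core genes with a start in the search had it. Rpl32l, among the paralogs and other symbols, had it too.
Rps6, chr4:86857353-86857382, minus strand: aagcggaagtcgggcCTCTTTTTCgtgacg
Rps10, chr17:27635230-27635259, minus strand: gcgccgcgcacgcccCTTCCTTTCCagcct
Rps15a, chr7:118116133-118116162, minus strand: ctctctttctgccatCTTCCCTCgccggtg
Rps18, chr17:33955651-33955680, minus strand: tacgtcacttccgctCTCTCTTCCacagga
Rplp2, chr7:141447636-141447665, plus strand: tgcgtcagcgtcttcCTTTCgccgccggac
Rpl28, chr7:4792950-4792979, plus strand: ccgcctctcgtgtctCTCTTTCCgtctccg
Rpl38, chr11:114668565-114668594, plus strand: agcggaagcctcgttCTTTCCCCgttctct
Rpl10l, chr12:66284387-66284416, minus strand: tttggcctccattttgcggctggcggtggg

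Of the 63 members, 51 had at least 1 start in the sequence table, with 60 windows in all. A run as above was found in 10 windows, or 16.7%, against 3.76% of all 32851 windows. CTTTCC on either strand, which can lie inside such a run and did in 3 of the 10, was found within the 300 bases around the start in 46.7% of member windows and 26.6% of all windows. CCGGAAG, a sequence bound by factors of the ETS family and searched on both strands after the others, was in 33.3% and 8.86%. A start whose base is T was not counted even within pyrimidines, as in Rpl7a, so these shares depend on the annotated base. The 10 members with a run had a median difference, as defined in the next paragraph, of -0.042, and the 41 with a window and no run -0.026. These counts describe the sequences and say nothing of what acts on them.

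No ribosomal protein gene passed the threshold between the Ly-6C-negative and Ly-6C-positive groups. Among the 63 members 0 passed a limma adjusted p of 0.05, against 0.145% of all genes, and 0 passed with the replicate number as a block, against 0.206%. The lowest adjusted p of a member was 0.840 by limma, or 0.733 with the block. At an unadjusted p under 0.05 there were also 0 members, against 6.71% of all genes. The differences, here and below Ly-6C-negative minus Ly-6C-positive on the log2 scale, ran from -0.15 to 0.15, with a median of -0.034. The median over all genes was -0.0048. In bulk cells, a difference in the share of cells of some kind and a difference in RNA per cell cannot be told apart.

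A missed threshold does not show equal levels, so the intervals are given. They hold for the brightest probe set of each gene, and some dimmer probe sets of the same genes lay farther from 0, as given below. For 52 of the 54 core genes the 95% interval of the difference lay within a 1.2-fold change in either direction, that is within 0.263 on the log2 scale. The exceptions were Rpl12, with a lower bound of -0.31, and Rpl14, with a lower bound of -0.27. All genes reached this in 57.9% of cases, and the 75 genes outside the members with a mean level of 12 or more in 92.0%. For 3 of the 9 paralogs and other symbols the interval was as narrow. The median standard deviation within groups was 0.0507 for the core genes and 0.0953 over all genes.

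**Figure D1:**
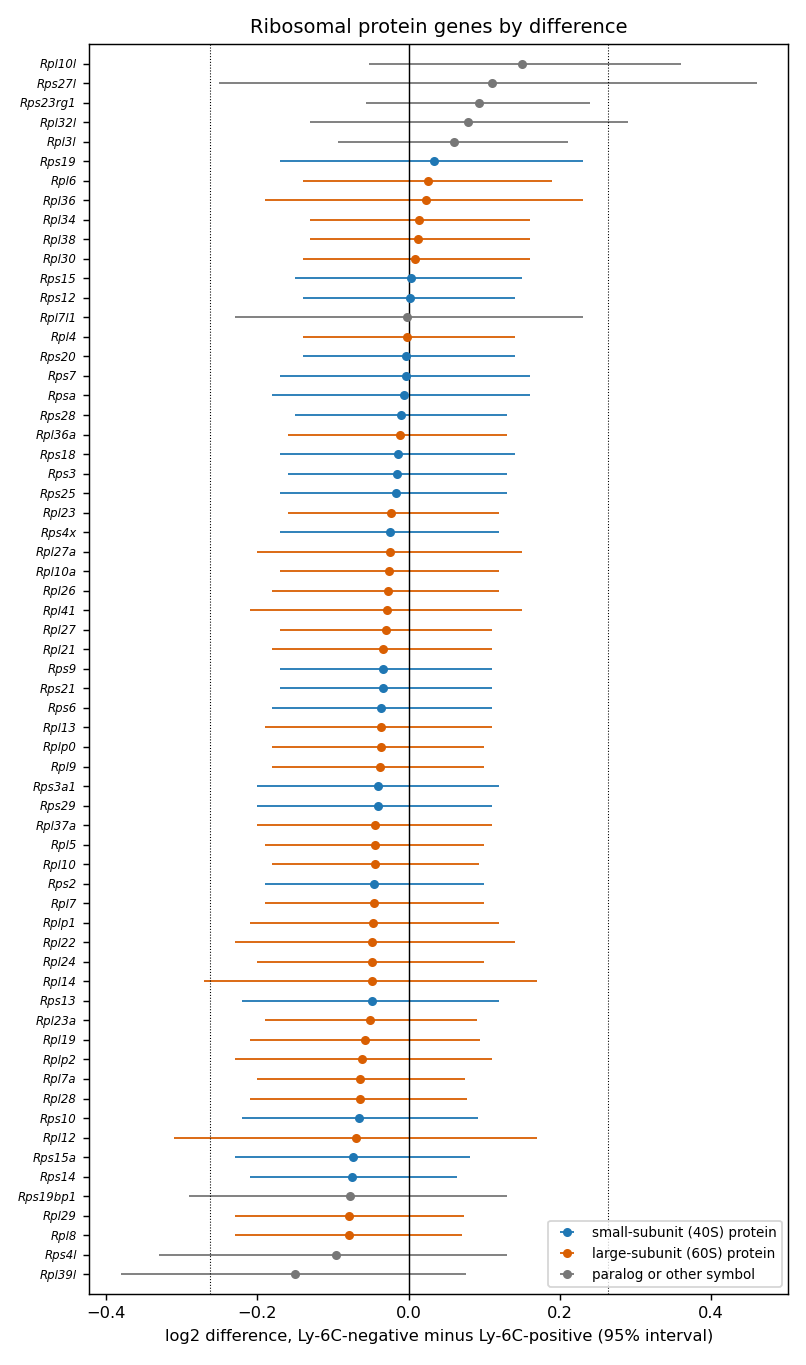
Difference of each of the 63 genes, Ly-6C-negative minus Ly-6C-positive, on the log2 scale, with limma's 95% interval from 3 arrays per group; colours give the subunit, dotted lines mark a 1.2-fold change. Every interval includes 0, the 54 core genes lie between -0.079 and 0.034, and the outermost genes at both ends are paralogs.

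Of the large-subunit proteins, the P stalk binds the factors that drive elongation. Rplp0, which carries the other stalk proteins, measured 13.31, 13.29 and 13.25 on the Ly-6C-positive arrays and 13.26, 13.21 and 13.27 on the Ly-6C-negative arrays (replicates 1, 2 and 3 in order, here and below). The groups overlapped, and the difference was -0.037 (95% interval -0.18 to 0.10, limma adjusted p = 0.953). Rplp1 averaged 12.92 ± 0.086 (SD, n = 3) against 12.88 ± 0.065 (SD, n = 3) in Ly-6C-negative cells, and Rplp2 10.54 ± 0.096 (SD, n = 3) against 10.48 ± 0.085 (SD, n = 3). Rpl12, at the foot of the stalk, measured 7.98, 8.28 and 8.10 against 7.98, 8.25 and 7.92, with a higher value for replicate 2 in both groups. The 4 stalk genes had a median difference of -0.054, with 0 past the threshold.

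Rpl5 carries the 5S ribosomal RNA and, when free of ribosomes, is known to bind the p53 inhibitor Mdm2. It measured 12.63, 12.60 and 12.54 against 12.53, 12.51 and 12.60, a difference of -0.044 (95% interval -0.19 to 0.10). One Ly-6C-negative array, replicate 3, lay among the Ly-6C-positive ones. Rpl10, which completes the large subunit, measured 12.70, 12.75 and 12.72 against 12.67, 12.68 and 12.69. Its groups did not overlap, yet the difference was -0.044 (95% interval -0.18 to 0.093, limma adjusted p = 0.942). Rpl22, a protein at the rim of the exit tunnel that is known to be required for alpha-beta T cell development, measured 9.92, 10.02 and 9.94 against 9.90, 10.06 and 9.78. Both the highest and the lowest of these 6 values were from Ly-6C-negative cells. Rpl4, which lines the tunnel, differed by -0.0025 (95% interval -0.14 to 0.14). Rpl38, known for its part in translating Hox messages in the embryo, differed by 0.013 (95% interval -0.13 to 0.16).

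The large-subunit core genes farthest from 0 were Rpl8 and Rpl29. Rpl8 measured 12.50, 12.45 and 12.45 against 12.36, 12.47 and 12.35, a difference of -0.079 or 0.947-fold (95% interval -0.23 to 0.070, limma adjusted p = 0.898). Replicate 2 of the Ly-6C-negative cells lay within the Ly-6C-positive range. Rpl29 measured 10.84, 10.90 and 10.98 against 10.88, 10.81 and 10.80, also -0.079 (limma adjusted p = 0.902). Over the 33 core genes of the large subunit the median difference was -0.038, and 28 lay below 0.

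Of the small-subunit proteins, Rps6 is phosphorylated by S6 kinases downstream of mTORC1. It measured 13.19, 13.14 and 13.08 against 13.09, 13.12 and 13.08, a difference of -0.036 (95% interval -0.18 to 0.11). Rps3, at the entry of the messenger channel, measured 12.51, 12.55 and 12.55 against 12.56, 12.47 and 12.53, a difference of -0.016. In both genes the groups overlapped. Rps19, the gene most often mutated in Diamond-Blackfan anaemia, measured 11.91, 11.95 and 12.09 against 11.96, 12.19 and 11.91. Its highest value was Ly-6C-negative replicate 2, and the difference was 0.034 (95% interval -0.17 to 0.23). Of 18 listed genes of that anaemia 8 were measured, with a median difference of -0.028 and 0 past the threshold.

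Rps14, near the exit of the messenger channel, had the difference farthest from 0 of the small-subunit core genes. It measured 13.01, 13.01 and 13.05 against 12.91, 12.98 and 12.95, a difference of -0.075 or 0.949-fold (95% interval -0.21 to 0.064, limma adjusted p = 0.897). Its groups did not overlap. Rps20 measured 13.18, 13.15 and 13.14 against 13.13, 13.19 and 13.14, a difference of -0.0031. Over the 21 core genes of the small subunit the median difference was -0.024, with 18 below 0, and the difference between the subunits was not tested. In all, the groups did not overlap in 3 of the 63 members, Rps14, Rpl7a and Rpl10, all lower in Ly-6C-negative cells. Over all genes the groups did not overlap in 12.6%, and no result about the members is read from their count. Rpl7a, named for this count, measured 12.15, 12.16 and 12.12 against 12.09, 12.10 and 12.05.

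The paralogs gave the outermost values on both sides, and none passed the threshold. Rpl10l measured 5.25, 5.45 and 5.43 against 5.67, 5.38 and 5.55, a difference of 0.15 (95% interval -0.052 to 0.36, limma adjusted p = 0.840). Rpl39l, known from testis, measured 4.39, 4.27 and 4.13 against 4.21, 4.21 and 3.90, a difference of -0.15 (95% interval -0.38 to 0.076, limma adjusted p = 0.862). In both genes the groups overlapped, and single arrays moved the value. Without Ly-6C-negative replicate 3 Rpl39l differed by -0.05, and without Ly-6C-positive replicate 1 by -0.09. Rpl10l differed by 0.083 without Ly-6C-negative replicate 1 and by 0.092 without Ly-6C-positive replicate 1, against 0.23 without Ly-6C-negative replicate 2. Rpl3l, known from heart and skeletal muscle, differed by 0.060 and Rps4l by -0.096. Rpl10l, Rpl3l and Rpl39l lay at the 29.3th, 26.1th and 8.63th percentile of gene levels. Of the core genes they resemble, Rpl10 differed by -0.044 and Rps4x, the partner of Rps4l, by -0.024, while Rpl3 and Rpl39 are not members.

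Rps27l, a paralog of Rps27 that p53 is known to induce, varied most between Ly-6C-negative arrays. It measured 8.73, 8.78 and 9.0 against 8.98, 9.29 and 8.56, so the Ly-6C-negative cells held both the highest and the lowest value. Its difference was 0.11 with a wide 95% interval of -0.25 to 0.46. Rpl7l1 had its highest and lowest values on the same arrays, at 8.54, 8.44 and 8.53 against 8.40, 8.75 and 8.36, and differed by -0.0015, while Rpl7 differed by -0.046. Rps19bp1 measured 8.23, 8.23 and 8.22 against 8.10, 8.36 and 7.98, where the Ly-6C-positive arrays were nearly equal and the Ly-6C-negative ones spread on both sides. Rps23rg1, a retrogene, and Rpl32l differed by 0.093 and 0.078. Over the 9 genes the median difference was 0.060, with 4 below 0, against -0.035 with 46 of 54 below 0 for the core genes.

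The arrays of the Ly-6C-negative group stood on both sides of the Ly-6C-positive ones. Ly-6C-negative replicate 2 lay highest, with a median deviation of 0.042 from each gene's own mean, and Ly-6C-negative replicate 3 lowest, at -0.067. Ly-6C-negative replicate 1 was at -0.025, and the Ly-6C-positive arrays were at 0.0078, 0.025 and 0.012. Ly-6C-negative replicate 2 held the highest value in 28 of the 63 genes, or 44.4% against 20.6% over all genes. It held the lowest in 7.94% against 24.4% over all genes. Ly-6C-negative replicate 3 held the lowest value in 38 of the 63, or 60.3% against 19.9% over all genes. Replicate 3 held the highest value of no member, against 17.4% over all genes. These same arrays stand at the ends of the first principal component over all genes, with scores of 19.9 for replicate 2 and -10.0 for replicate 3 and from -3.89 to -0.259 for the others. What sets them apart was not tested.

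**Figure D2:**
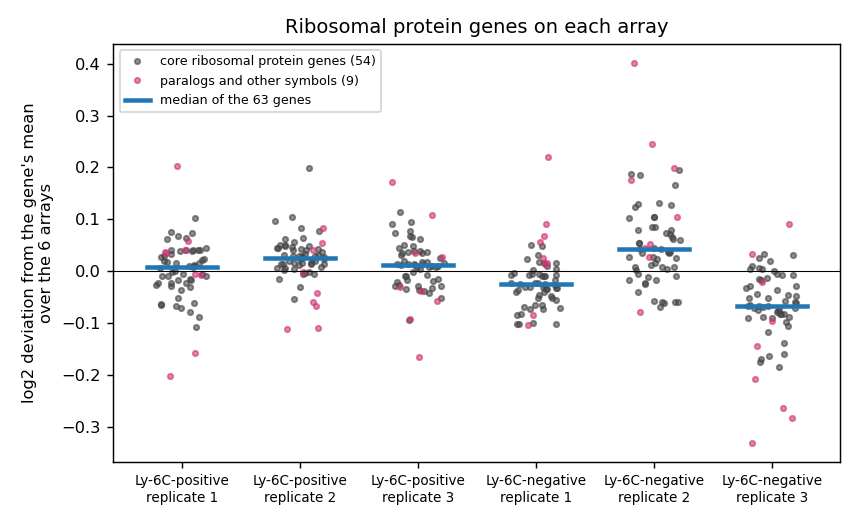
Deviation of each of the 63 genes from its own mean over the 6 arrays, on the log2 scale, for each array; bars are medians over the genes. The medians of the 3 Ly-6C-positive arrays lie between 0.0078 and 0.025, and those of the Ly-6C-negative arrays at -0.025, 0.042 and -0.067.

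Between same-numbered arrays the direction differed as well. The median difference of the members was -0.040 for replicate 1, 0.019 for replicate 2 and -0.070 for replicate 3, with 43, 27 and 48 of the 63 below 0. In 11 members, or 17.5%, the sign was the same in the 3 pairs, against 28.1% of all genes. Of these 9 were lower and 2 higher in Ly-6C-negative cells. Without Ly-6C-negative replicate 3 the median difference was -0.0027, and without Ly-6C-negative replicate 2 it was -0.057. In the fit on all arrays 50 of 63 members lay below 0, or 79.4% against 52.2% of all genes. After a second quantile normalization 35 did, and after subtraction of array medians 40.

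**Figure D3:**
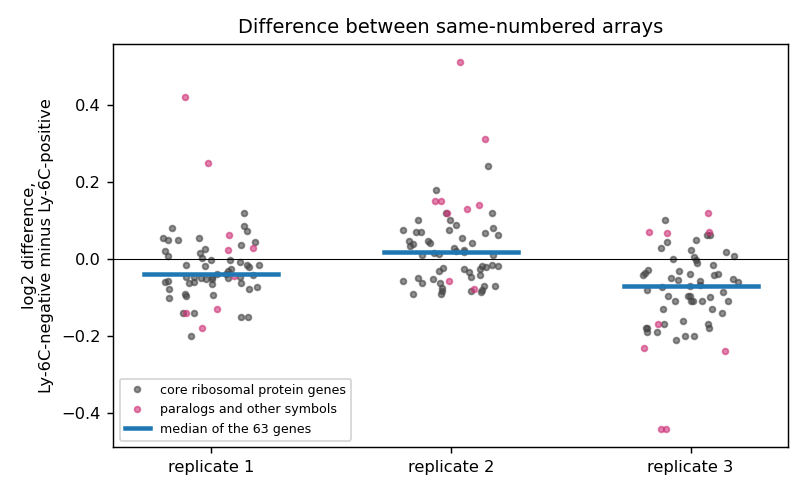
Difference of each of the 63 genes between the Ly-6C-negative and the Ly-6C-positive array of the same replicate number, on the log2 scale; bars are medians over the genes. The medians are -0.040, 0.019 and -0.070, so replicate 2 lies on the other side of 0.

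The members sat at the bright end of the arrays. Of the 121 genes with a mean level of 12 or more, 46 were members, all of them core genes. The median member stood at the 99.8th percentile of gene levels. A probe set's brightness also depends on its sequence, so no order among the members is read from these levels. The 75 other genes as bright had a median difference of 0.0025, with 36 below 0 and a median standard deviation within groups of 0.0741. On Ly-6C-negative replicate 3, where the members were lowest, those 75 genes had a median deviation of 0.038.

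**Figure D4:**
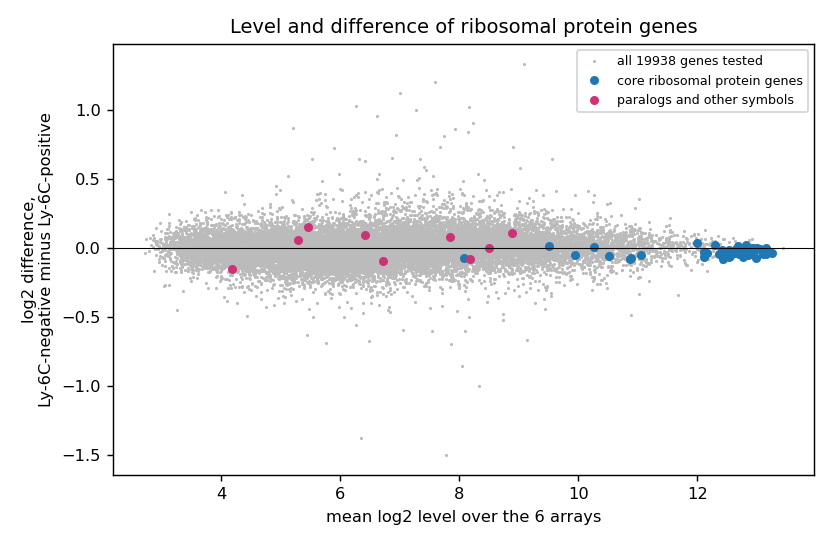
Difference, Ly-6C-negative minus Ly-6C-positive, against mean level over the 6 arrays, both on the log2 scale, for all 19938 genes tested, with the members in colour. Most core genes form a narrow band at levels of 12 and above, and the paralogs lie among dim and middling genes.

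The genes had many probe sets, which is a further look at the same arrays and no replicate. Of the 39 members with more than 1, every probe set lay below 0 in 32 and above 0 in 1, and the sign was mixed in 6. The range of differences within a gene had a median of 0.0364 and reached 0.185, in Rpsa. Its brightest probe set differed by -0.0066 and its dimmest by -0.19. The dimmest probe sets of Rpsa, Rpl13 and Rpl7a were the 3 of 219 with an unadjusted p under 0.05, at -0.19, -0.18 and -0.18 (limma adjusted p of 0.680, 0.702 and 0.650), where the brightest of Rpl13 and Rpl7a gave -0.037 and -0.064. None of the 219 passed, in a fit of each of the 21789 probe sets with 1 symbol that gave 25 calls. For Rps15 the brightest probe set differed by 0.0034 and the lowest of its 3 by -0.11. Rps12 had 14 probe sets, 8 of which repeat the values of another, from -0.029 to 0.0022. Many copies of these genes lie across the genome as processed pseudogenes, and which copy a probe set reads was not tested.

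**Figure D5:**
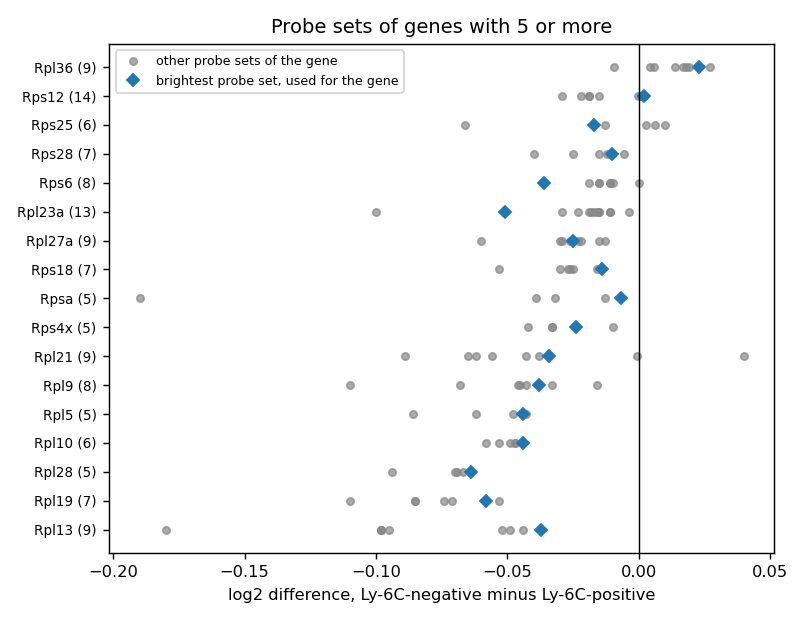
Difference of every probe set of the members with 5 or more, Ly-6C-negative minus Ly-6C-positive on the log2 scale; diamonds mark the brightest probe set, which stands for the gene, and the number of probe sets follows the name. Rpsa and Rpl13 each have a dim probe set near -0.19 or -0.18 that lies apart from the rest.

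Other lists of protein synthesis genes had small medians, while single genes in them lay farther from 0 than the core members. Fau, which encodes a small-subunit protein under another symbol, differed by -0.031 (95% interval -0.20 to 0.13). The 18 measured genes of other TOP messages, mostly translation factors, had a median difference of -0.040 with 14 below 0. Vim had the smallest p among them and differed by 0.17 (limma adjusted p = 0.753). The nucleolar chaperone gene Npm1, also among them, differed by -0.17 (limma adjusted p = 0.813), and by -0.07 without Ly-6C-negative replicate 1. The 29 initiation factor genes had a median of -0.033. Eif2b3, of the exchange factor of eIF2, differed by -0.26 (limma adjusted p = 0.453) and Eif4h by 0.18 (limma adjusted p = 0.709). The 10 elongation and termination factor genes had a median of -0.023. Of these lists 0 members passed the limma threshold. The unadjusted p was under 0.05 in 2 initiation factor genes, or 6.9% of them, and in 0 genes of the others. Over all genes that share was 6.71%.

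Genes that build the ribosome were also without a call. The 54 measured biogenesis factors had a median difference of -0.037, with 36 below 0 and 0 past the limma threshold. An unadjusted p under 0.05 was reached by 3, or 5.56%, against 6.71% of all genes. Wdr12, of a complex that matures the large subunit, averaged 9.61 ± 0.14 (SD, n = 3) against 9.24 ± 0.12 (SD, n = 3). It differed by -0.37 (limma adjusted p = 0.400). Bysl, a factor for the small subunit, averaged 7.99 ± 0.059 (SD, n = 3) against 7.70 ± 0.062 (SD, n = 3). It differed by -0.29 (limma adjusted p = 0.357). Sbds, also of this list, differed by 0.17 (limma adjusted p = 0.74). The 12 genes of RNA polymerase I and its factors, which make ribosomal RNA, had a median of 0.040, with 0 past the limma threshold or at an unadjusted p under 0.05. The 77 genes of mitochondrial ribosomal proteins, a separate ribosome of bacterial descent, had a median of -0.0085, with 43 below 0 and 0 past the limma threshold. Of these 77, 3 were at an unadjusted p under 0.05, or 3.9%. They were Mrps18b and Mrps10, at -0.16 and -0.23, and Mrps6, at 0.23 (limma adjusted p of 0.707, 0.732 and 0.732).

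Regulators of ribosome output gave 0 calls by limma in each list. The 18 genes of the mTORC1 arm had a median difference of 0.017. For the 14 transcription factors with a part in ribosome genes, such as Myc and its partners, it was 0.061. In each list 1 gene was at an unadjusted p under 0.05, or 5.56% and 7.14%, against 6.71% of all genes. They were Deptor, at -0.23 (limma adjusted p = 0.48), and Mxd4, at 0.19 (limma adjusted p = 0.736). The 6 measured genes with Rps6k symbols, which the member rule leaves out, had a median of -0.067. They are Rps6ka3, Rps6ka5, Rps6ka6, Rps6kb2, Rps6kc1 and Rps6kl1, and Rps6kb1 is not among them. Rps6kc1 differed by -0.17 (limma adjusted p = 0.739), or by -0.11 without Ly-6C-negative replicate 3. The 10 measured genes of the p53 response to ribosome stress had a median of 0.023. This list and the Rps6k genes each held 1 gene at an unadjusted p under 0.05, or 10.0% and 16.7% of these short lists. Those genes were Mdm2, at 0.23 (limma adjusted p = 0.617), and Rps6kc1. With the replicate number as a block the lists above still gave 0 calls.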

How the data were processed

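RNA of 6 samples was hybridised to Affymetrix mouse arrays. Per the labels' protocols, cells were enriched with beads and sorted, and 50 ng of RNA was amplified and 5 µg of cDNA labelled. The authors deposited log2 values per probe set. RMA and Partek are the tools named, with no version or role, per the submitters' processing notes, and the build is not given in the sources used here. RMA as usually run makes the arrays' distributions alike, so a change shared by most genes could not be seen. The deposited log2 values were used as they stand, with 28853 probe sets, of which 21789 carry 1 symbol, 1621 several and 5443 are not listed. Symbols were updated by Entrez ID, matching 21698. The median log2 value of an array was 6.29, 6.29 and 6.28 in Ly-6C-positive and 6.27, 6.26 and 6.25 in Ly-6C-negative cells (replicates 1, 2 and 3). Each Ly-6C-negative array thus had a slightly lower median than each Ly-6C-positive one. Precision is limited by there being 3 arrays per group.

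Differences across all 19938 genes were tested with limma 3.58.1 (lmFit, eBayes, 2-sided) in R 4.3.3, with Benjamini-Hochberg adjustment over all genes, no filter and no covariate. The steps were tested on simulated data. Lists are given by counts and medians, without a test. Python 3.11.15 with matplotlib 3.10.9 gave the plots. Named are the 6 members farthest from 0 on each side, the stalk, 5S and paralog genes with their partners, a short set (Rps6, Rps3, Rps19, Rpl10, Rpl38) and up to 3 genes with the smallest p in each list. Not all of these are printed, sequences were chosen for their pyrimidine run, and Rpl4, Rpl7a, Rpl14, Rps20, Rps12, Rps15, Rpsa and Rpl13 were named after their values were seen. The members and lists were chosen with earlier results of these data known.

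Same-numbered arrays deviated together from their group means across genes, with r of 0.129, 0.128 and 0.107. The highest r between arrays of different number, across the groups, was -0.0114. The labels do not state a pairing, and these small values alone do not establish one. The replicate block was an alternative, beside other scalings, filters, probe set rules, variance models, array weights and leaving out each array.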

Additional observations from a re-analysis of the deposited data

How the results depend on the processing

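The members gave 0 limma calls under the 14 alternative fits, in which the lowest member adjusted p was 0.462, and 0 at an adjusted p of 0.1. With the replicate number as a block, the count over all genes was 41 in place of 29, and the members' median stayed at -0.034 with 0 calls. Array weights raised the count over all genes to 54, and leaving out 1 array gave 5 to 47. The members' median stayed below 0 in these fits, at -0.013 after subtraction of array medians, -0.0084 after a second quantile normalization and -0.057 to -0.0027 with 1 array left out.

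Small differences of single genes, none of them called, changed sign. With array medians subtracted, Rpl4 was at 0.019, Rpl7l1 at 0.020, Rps20 at 0.018, Rps3 at 0.0052 and Rpsa at 0.015. With a second quantile normalization Rpl4 was at 0.011, Rps20 at 0.013, Rps3 at 0.022 and Rpsa at 0.024. With probe sets averaged within each gene, Rpl38 was at -0.015, Rps12 at -0.0065 and Rps15 at -0.052. With array weights Rpl38 was at -0.011, Rps12 at -0.0093, Rps15 at -0.013 and Rps3 at 0.00067.

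With 1 array left out, the sign also changed within the ranges that follow. In the small subunit these were -0.011 to 0.022 for Rps12, -0.038 to 0.027 for Rps15, -0.051 to 0.088 for Rps19, -0.021 to 0.0079 for Rps20, -0.036 to 0.0095 for Rps3, -0.046 to 0.00027 for Rps4x, -0.074 to 0.030 for Rpsa and -0.067 to 0.016 for Fau. In the large subunit they were -0.17 to 0.012 for Rpl12, -0.15 to 0.026 for Rpl14, -0.12 to 0.020 for Rpl22, -0.024 to 0.040 for Rpl38 and -0.024 to 0.017 for Rpl4. Among the paralogs and other symbols they were -0.0012 to 0.15 for Rpl32l, -0.12 to 0.070 for Rpl7l1, -0.19 to 0.0058 for Rps19bp1, -0.066 to 0.30 for Rps27l and -0.15 to 0.012 for Rps4l. The median of the initiation factors was 0.016 without Ly-6C-negative replicate 2. The causes were not tested.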

Other observations

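Beyond the members, 239 probe sets list several symbols of which at least 1 meets the member rule. Their median difference was -0.044, with 221 below 0, or 92.5% against 53.4% of all probe sets. In the fit over all probe sets 0 of the 239 passed a limma adjusted p of 0.05, against 45 of all 28853. At an unadjusted p under 0.05 were 9 of the 239, where 6.71% of all genes tested reached that in the fit by gene. Probe set 10563114, listed under both Snord32a, a small nucleolar RNA, and Rpl13a, measured 8.89, 9.13 and 9.08 in Ly-6C-positive and 8.45, 8.72 and 8.40 in Ly-6C-negative cells. Its groups did not overlap, and its difference of -0.51 was the farthest from 0 of these probe sets (limma adjusted p = 0.191). Which of the listed transcripts it reads was not tested. Another probe set listed under Rpl13a and other symbols, 10389522, differed by -0.14 (limma adjusted p = 0.746). Of the 9, 6 list Rpl29 with gene models, at -0.14 to -0.24, where the member probe set of Rpl29 differed by -0.079. All 6 also list Gm13213, and whether they read the same copies was not tested, so they are no replicates of each other. These probe sets were singled out after their values were seen.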
